A study of Homo sapiens with 6 samples.

Results

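Histone genes were examined in MDA-MB-231 cells, a human triple-negative breast cancer line, after transfection with an siRNA named siRNA-1 against ERBBride or with a control siRNA named siCTRL. The histone genes were taken as every row of the count table whose Ensembl identifier maps to a protein-coding symbol that begins with H1-, H2A, H2B, H3 or H4. That gave 94 of the 20042 genes in the table. By symbol, 70 of them were classed as replication-dependent (H1-1 to H1-6 and all genes named H2AC, H2BC, H3C or H4C) and 24 as variant (all others, such as H2AZ1 and H3-3B). Of the 70 replication-dependent genes, 55 lie on chromosome 6 and 13 on chromosome 1. No measured value entered this rule, though it was set with earlier results of these data known.

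The study has 3 cultures with siRNA-1 and 3 with siCTRL, which the labels call biological replicates. Libraries for sequencing were made from total RNA of each culture. Both groups are the same wild-type line, each received an siRNA, and no second siRNA against ERBBride was analysed here. ERBBride itself has no row in the table, so its knockdown could not be checked. Dose, time after transfection and how the cultures were kept separate were not given in the sources used here. As a result, p-values measure only the spread between these cultures.

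Nucleosomes wrap DNA around an octamer of core histones H2A, H2B, H3 and H4, and linker histone H1 binds where the DNA enters and leaves. Replication-dependent histone genes lie in clusters, are transcribed mainly in S phase, and give mRNAs that usually end in a stem-loop bound by SLBP in place of a poly(A) tail. Variant genes are mostly scattered single genes with introns and polyadenylated mRNAs, expressed throughout the cell cycle, and their proteins replace the canonical histones at chosen places in chromatin. Some replication-dependent genes also give polyadenylated forms that run past the stem-loop, mainly in cells that have left the cycle. The kit number in the labels is one that its manufacturer uses for poly(A) mRNA isolation, and in a library selected that way the counts of a replication-dependent gene come mainly from its tailed forms. Whether selection was done, and its part in the results, was not tested.

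The stem-loop that separates the 2 kinds of mRNA is shown for the 8 tested replication-dependent genes with a match and for H2AX. The search, on GENCODE 29 transcripts (GRCh38), was for a 6-base stem that begins with GG and pairs exactly, around a 4-base loop of the form TNTN. It matched 30 of the histone genes, 28 replication-dependent ones plus H2AX and H3-4, against 144 of 19684 protein-coding genes (0.732%). Capitals mark stem and loop, with 5 bases on either side, on the strand of the gene. A match describes the letters of the transcript and is not evidence that the RNA was cut there.
H2AC6, chr6:26124669-26124684 (+): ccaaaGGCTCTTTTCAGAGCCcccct
H2BC4, chr6:26123472-26123487 (-): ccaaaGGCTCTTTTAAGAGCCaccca
H2BC5, chr6:26158587-26158602 (+): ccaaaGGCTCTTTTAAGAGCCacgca
H2BC6, chr6:26184210-26184225 (+): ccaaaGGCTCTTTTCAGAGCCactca
H2BC15, chr6:27839090-27839105 (+): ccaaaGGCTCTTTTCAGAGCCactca
H2BC21, chr1:149886188-149886203 (-): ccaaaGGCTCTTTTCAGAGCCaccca
H3C10, chr6:27810516-27810531 (+): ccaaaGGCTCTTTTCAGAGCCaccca
H4C8, chr6:26285131-26285146 (-): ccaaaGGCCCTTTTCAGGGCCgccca
H2AX, chr11:119094898-119094913 (-): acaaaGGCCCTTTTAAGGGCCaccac
The H2A, H2B and H3 genes of this set share the stem GGCTCT with its complement, H4C8 and H2AX have GGCCCT, and the loops differ only in their last base. H2BC15 has a further match, which is not shown. All 9 genes have an annotated transcript that continues past the stem-loop. The longest such tail ran from 39 bases in H2BC5 and 116 bases in H2BC4 to 1655 bases in H4C8 and 1729 bases in H2BC21. The GENCODE 29 transcripts of H1-2 and H2BC12 end with the coding region, at 642 and 381 bases, so the absence of a match there is a property of the annotation.

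Whole libraries held 14153969, 15014434 and 14385650 counts with siRNA-1, against 14847527, 12813706 and 13853510 with siCTRL. Values below are normalised counts-per-million (CPM), in which 3 counts correspond to 0.199 to 0.233 CPM. The line's markers VIM, CD44, CAV1 and EGFR were at 341 CPM or more in every library, ESR1 and PGR had at most 3 counts, and epithelial CDH1 and EPCAM had 6 to 40 and 76 to 234 counts. Of the markers of other cells, CD3E and CDH5 had 0 counts, PTPRC 2 to 13 and PECAM1 54 to 108. The library siCTRL 2 stood apart from its group: log2 levels differed from siCTRL 1 and 3 with an SD over genes of 0.313 and 0.333, against 0.231 between siCTRL 1 and 3 and at most 0.232 within siRNA-1. The transcriptome changed widely, since 7772 of the 12440 genes with enough counts passed edgeR's quasi-likelihood test at an adjusted p of 0.05, with a median log2 fold change of 0.006 over all genes tested. More cells in S phase and more histone RNA per cell cannot be told apart in such bulk RNA.

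Only 22 of the 94 histone genes had enough counts for the test, and the 2 classes differed in how many of their genes did. Of the 70 replication-dependent genes, 12 were tested, 32 had some counts but too few, and 26 had 0 counts in all 6 libraries. Many of those at 0 counts lie side by side. Every histone gene placed by GENCODE 29 from H4C4 to H2BC10 on chromosome 6 (26188765 to 26273356) had 0 counts. H2BC6 and H4C8, on either side of that run, had 145 and 181 counts in total. The reason for this unbroken run was not tested. Of the 24 variant genes, 10 were tested, 3 had some counts (H2BK1 5, H3-4 2 and H3Y1 1 in total) and 11 had none. By family, the replication-dependent H2B genes were tested most often, 7 of 19, against 2 of 6 H1, 1 of 17 H2A, 1 of 13 H3 and 1 of 15 H4 genes. Among variants, 2 of 4 H1, 4 of 9 H2A, 0 of 4 H2B and 4 of 7 H3 genes were tested. The low-count filter asks for counts in as many libraries as a group holds, so a gene may pass through 1 group: that was so for H1-4 and H3C10.

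**Figure D1:**
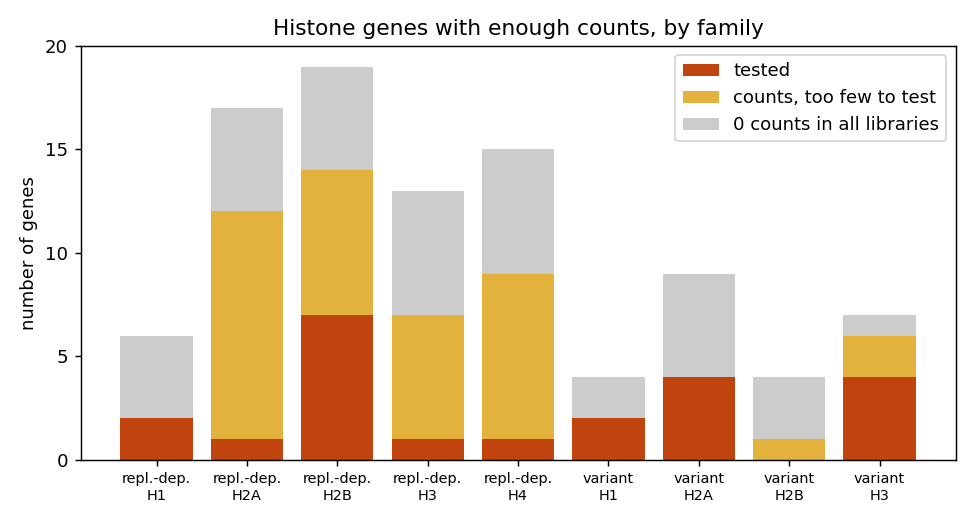
Number of histone genes by class and family, split into those tested, those with counts too few to test and those at 0 counts in all 6 libraries. Most replication-dependent H2A, H3 and H4 genes are in the last 2 kinds, and H2B holds 7 of the 12 replication-dependent genes tested.

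Among the 22 tested histone genes, 14 rose with siRNA-1 and 1 fell, H2AZ2, while 7 did not pass. Over all genes tested, 62.5% passed in either direction, so 15 calls among 22 is close to the background. By direction, 31.5% of all genes were called higher and 31.0% lower. In 17 of the 22 the 3 siRNA-1 libraries did not overlap the 3 siCTRL libraries, 14 of them above and 3 below, beside 67.6% of all genes. The median log2 fold change was 0.57 over the 22, 0.77 over the 12 replication-dependent genes and 0.24 over the 10 variants. Since the tested genes include some that passed through 1 group only, H3C10 among those that rose, these counts and medians describe them and support no more. The difference between the classes was not tested.

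**Figure D2:**
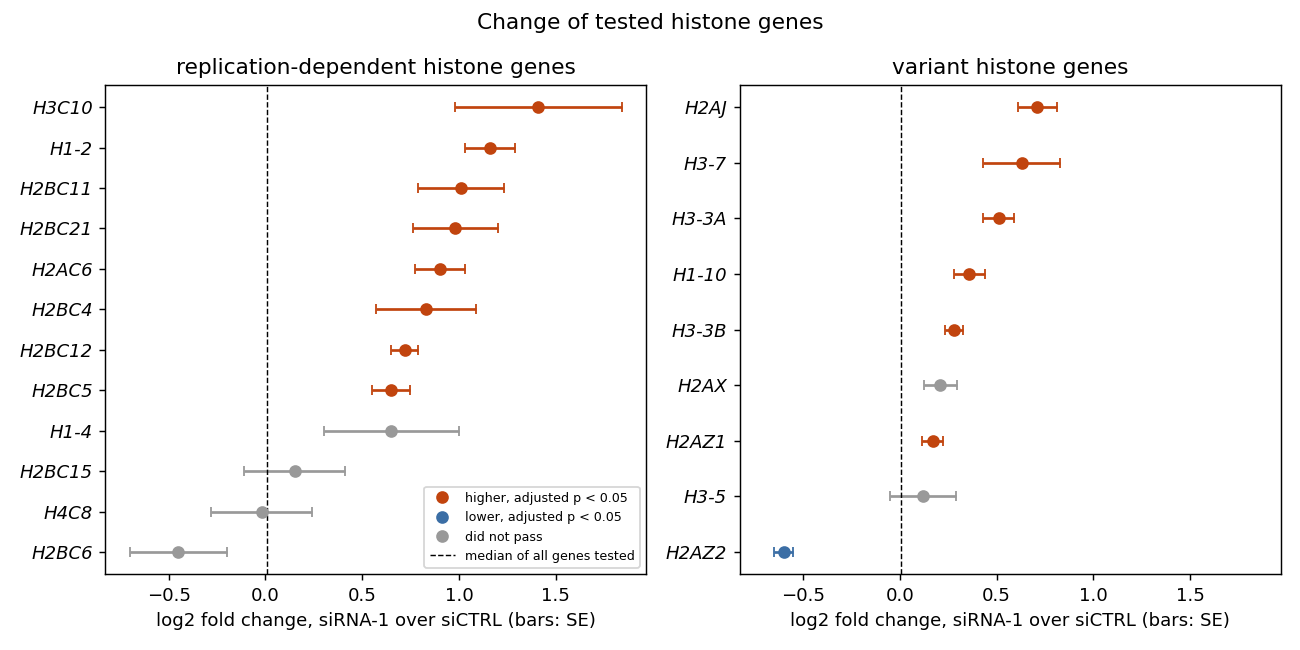
Log2 fold change of siRNA-1 over siCTRL, with its SE, for tested histone genes, split into replication-dependent genes and variants; colour gives the call at an adjusted p of 0.05 and the dashed line the median of all genes tested, 0.006. Replication-dependent genes run from -0.45 (H2BC6) to 1.41 (H3C10) and variants from -0.60 (H2AZ2) to 0.71 (H2AJ).

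Replication-dependent histone counts were higher with siRNA-1. Of the 12 tested genes, 8 rose, none fell and 4 did not pass. Over all genes tested, 62.5% passed, 31.5% higher and 31.0% lower. The 8 include H3C10, which passed the low-count filter through its siRNA-1 libraries only, so its rise adds no support. Counts summed over all 70 genes were 266, 243 and 254 CPM with siRNA-1 and 158, 126 and 155 CPM with siCTRL. Every siRNA-1 library was above every siCTRL library, and siCTRL 2 was the lowest. The means were 254 ± 11.8 CPM with siRNA-1 and 147 ± 17.7 CPM with siCTRL (SD, n = 3 each), a ratio of 1.74. The 24 variants summed to 2007 ± 7.07 CPM with siRNA-1 and 1941 ± 4.01 CPM with siCTRL, a ratio of 1.03. Replication-dependent genes made up 11.8%, 10.8% and 11.2% of all histone-gene counts with siRNA-1, against 7.52%, 6.11% and 7.41% with siCTRL. The shares of the groups do not overlap, and an exact two-sided permutation test gave p = 0.1, the smallest that 3 against 3 allows.

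**Figure D3:**
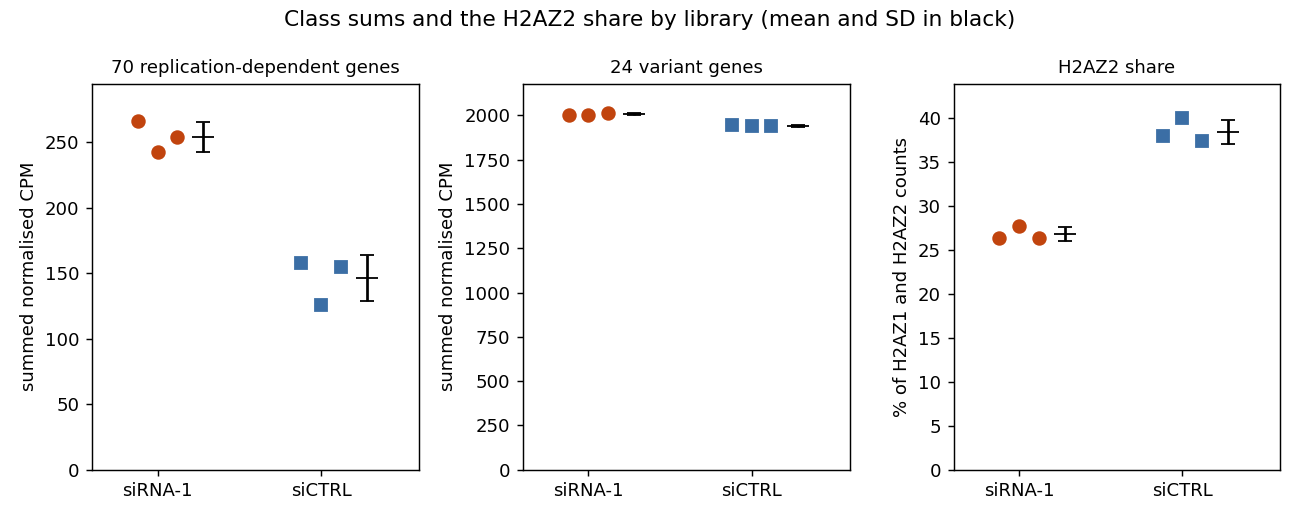
Summed normalised CPM of the 70 replication-dependent genes (left) and of the 24 variant genes (middle), and the share of H2AZ2 in the counts of H2AZ1 and H2AZ2 (right), in each library, with the group mean and SD in black. The left panel shows means of 254 CPM with siRNA-1 and 147 CPM with siCTRL, and the middle panel 2007 and 1941 CPM.

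Group means of the summed counts were higher with siRNA-1 in each replication-dependent family. Summed CPM was 41.8 ± 2.84 with siRNA-1 and 18.9 ± 4.04 with siCTRL for replication-dependent H1, a ratio of 2.21. For H2A it was 44.5 ± 1.73 with siRNA-1 and 23.7 ± 5.06 with siCTRL, a ratio of 1.88. For H2B it was 162 ± 7.3 with siRNA-1 and 99.9 ± 8.29 with siCTRL, a ratio of 1.62. The H3 and H4 genes were counted far less. All 13 H3 genes together had 39, 30 and 45 counts with siRNA-1 and 23, 13 and 12 with siCTRL. All 15 H4 genes together had 58, 47 and 66 counts with siRNA-1 and 49, 31 and 36 with siCTRL, and those ranges overlap. Each family sum other than H4 was higher in every siRNA-1 library than in every siCTRL library, and none was tested.

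H2BC12, which encodes a canonical H2B, had more counts than any other replication-dependent gene. It had 128, 118 and 122 CPM with siRNA-1 and 75.8, 67.6 and 80.7 CPM with siCTRL. The groups lie well apart, with all siRNA-1 libraries above all siCTRL libraries. H2BC12 (ENSG00000197903.8) rose by a log2 fold change of 0.72 (SE 0.07, edgeR adjusted p = 3.7e-06). When libraries were corrected for GC content and length, the log2 fold change of H2BC12 was 0.51 (edgeR adjusted p = 6.0e-06). Its share of replication-dependent counts was 48.3% ± 0.453 with siRNA-1 and 51.2% ± 2.94 with siCTRL (SD, n = 3, exact permutation p = 0.4). Without H2BC12 the other 69 genes summed to 132 ± 6.97 CPM with siRNA-1 and 71.8 ± 12.2 CPM with siCTRL, a ratio of 1.83. In GENCODE 29, 74.1% of the 50-base words of H2BC12 also occur in transcripts of other genes, so its counts may be split with near-identical copies.

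H1-2, a linker histone of the chromosome 6 cluster, had 43.8, 40.1 and 37.8 CPM with siRNA-1 and 21.4, 13.8 and 19.2 CPM with siCTRL. No siRNA-1 library came near the controls, of which siCTRL 2 was the lowest. H1-2 (ENSG00000187837.4) rose 2.23-fold (log2 1.16, SE 0.13, edgeR adjusted p = 1.0e-05). H2AC6, which encodes a canonical H2A, had 41.9, 39.7 and 41.2 CPM with siRNA-1 and 25.3, 16.1 and 24.5 CPM with siCTRL. Its siRNA-1 libraries were close to each other and all above siCTRL, where siCTRL 2 was again the lowest. H2AC6 (ENSG00000180573.10) rose 1.86-fold (log2 0.90, SE 0.13, edgeR adjusted p = 9.5e-05). None of the 50-base words of H1-2, and 0.432% of those of H2AC6, occur in other genes.

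The promoters of these genes with the most replication-dependent reads are printed because they belong to one cluster, moved together and carry different motifs. They are RefSeq windows (GRCh38.p14) from 250 bases before to 50 after the start, on the gene's strand; RefSeq has more than one start for H2BC12, and 1 is shown. Capitals mark the octamer ATTTGCAT, the box CCAAT and the box TATAAA on either strand, and overlapping matches run together.
H2BC12, chr6:27146809-27147108 (-): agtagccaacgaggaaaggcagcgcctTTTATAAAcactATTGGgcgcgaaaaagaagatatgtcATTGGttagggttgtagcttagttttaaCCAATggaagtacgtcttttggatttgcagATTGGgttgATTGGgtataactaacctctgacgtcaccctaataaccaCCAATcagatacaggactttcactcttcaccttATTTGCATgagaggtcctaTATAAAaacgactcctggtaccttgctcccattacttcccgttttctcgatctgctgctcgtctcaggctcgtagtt
H2AC6, chr6:26123922-26124221 (+): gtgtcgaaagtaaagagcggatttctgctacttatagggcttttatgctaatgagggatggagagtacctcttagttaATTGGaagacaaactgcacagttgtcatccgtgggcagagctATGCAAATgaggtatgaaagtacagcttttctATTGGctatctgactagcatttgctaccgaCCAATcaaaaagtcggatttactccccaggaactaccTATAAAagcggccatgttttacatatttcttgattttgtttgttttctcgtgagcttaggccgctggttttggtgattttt
H1-2, chr6:26056421-26056720 (-): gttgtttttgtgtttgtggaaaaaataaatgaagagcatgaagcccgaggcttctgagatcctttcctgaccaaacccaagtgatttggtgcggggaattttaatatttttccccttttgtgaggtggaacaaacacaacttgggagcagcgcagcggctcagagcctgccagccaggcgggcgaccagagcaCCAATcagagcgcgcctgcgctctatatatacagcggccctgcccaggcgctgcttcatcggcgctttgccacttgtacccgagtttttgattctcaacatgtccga
H2BC12 has the octamer, 6 CCAAT boxes and TATAAA on both strands. H2AC6 has the octamer, 3 CCAAT boxes and TATAAA, and its window also holds the whole gap to H2BC4, which starts 219 bases away on the other strand. H1-2 has 1 CCAAT box and neither of the others. ATTTGCAT was found for 26 of the 64 replication-dependent genes with a RefSeq window and for 1 of 21 variant genes, against 2.19% of 27305 genes. A gene is counted if any of its windows matches, so genes with more starts have more windows to match. The octamer was in 14 of 18 H2B and 11 of 16 H2A genes, 1 of 11 H3 genes, and none of 6 H1 and 13 H4 genes. The H3 gene is H3C4, which has the octamer only in a window (chr6:26199244-26199543) that is also the window of H2AC7. CCAAT was in 54 of 64 replication-dependent and 20 of 21 variant genes (39.7% of all genes). TATAAA was in 43 of 64 replication-dependent and 7 of 21 variant genes (14% of all genes). Among the 12 tested replication-dependent genes, the octamer was in 5 of the 8 that rose and 1 of the 4 that did not pass. These are counts of letters in a window, with no bearing tested on whether a factor binds.

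Of the other H2B genes, 4 rose. H2BC5 had 23.5, 20.5 and 22.6 CPM with siRNA-1 and 15.3, 13.3 and 13.7 CPM with siCTRL. Its libraries form a high group with siRNA-1 and a low group with siCTRL, without overlap. H2BC5 rose by a log2 fold change of 0.65 (SE 0.099, edgeR adjusted p = 0.000119). H2BC11 had 3.77, 2.85 and 3.61 CPM with siRNA-1 and 1.78, 1.71 and 1.56 CPM with siCTRL. All 3 siRNA-1 values are above the controls, and it rose by 1.01 on the log2 scale (SE 0.22, edgeR adjusted p = 0.00162). H2BC21, the tested gene of the chromosome 1 cluster, had 2.86, 3.25 and 3.88 CPM with siRNA-1 and 1.92, 1.55 and 1.56 CPM with siCTRL. Here too the groups are apart, and it rose by 0.98 on the log2 scale (SE 0.22, edgeR adjusted p = 0.00238). H2BC4 had 4.33, 3.18 and 3.27 CPM with siRNA-1 and 2.74, 1.32 and 1.93 CPM with siCTRL. Its groups do not overlap but siCTRL varies, and siRNA-1 1 is the highest library. H2BC4 rose by 0.83 on the log2 scale (SE 0.26, edgeR adjusted p = 0.0162), and without siRNA-1 1 it did not pass (log2 0.68, edgeR adjusted p = 0.0774).

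The other 2 tested H2B genes did not pass. H2BC6 had 1.47, 1.39 and 1.5 CPM with siRNA-1 and 1.57, 2.33 and 2.08 CPM with siCTRL, so its siRNA-1 libraries were all just below the controls. The log2 fold change was -0.45 (SE 0.25, edgeR adjusted p = 0.143). H2BC15 had 1.89, 2.45 and 3.13 CPM with siRNA-1 and 2.81, 1.79 and 2.08 CPM with siCTRL, with overlap (log2 0.15, SE 0.26, edgeR adjusted p = 0.624). In GENCODE 29, 28.2% of the exonic bases of H2BC6 and 7.25% of those of H2BC15 also lie in other genes.

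H3C10, the tested canonical H3 gene, had 10, 11 and 14 counts with siRNA-1 and 5, 3 and 4 with siCTRL. The groups are apart, but the siCTRL libraries are at or barely above 3 counts. The fitted change was 1.41 on the log2 scale (SE 0.43, edgeR adjusted p = 0.0125), and it did not pass by DESeq2 (log2 1.43, adjusted p = 0.0688) or without siRNA-1 3 (log2 1.26, edgeR adjusted p = 0.0543). H4C8, the tested H4 gene, had 2.17, 1.52 and 2.66 CPM with siRNA-1 and 2.46, 1.86 and 2.08 CPM with siCTRL. The groups overlap fully (log2 -0.02, SE 0.26, edgeR adjusted p = 0.946). H1-4, a linker histone, had 1.19, 0.927 and 1.7 CPM with siRNA-1 and 0.958, 0.621 and 0.818 CPM with siCTRL, with overlap (log2 0.65, SE 0.35, edgeR adjusted p = 0.121).

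**Figure D4:**
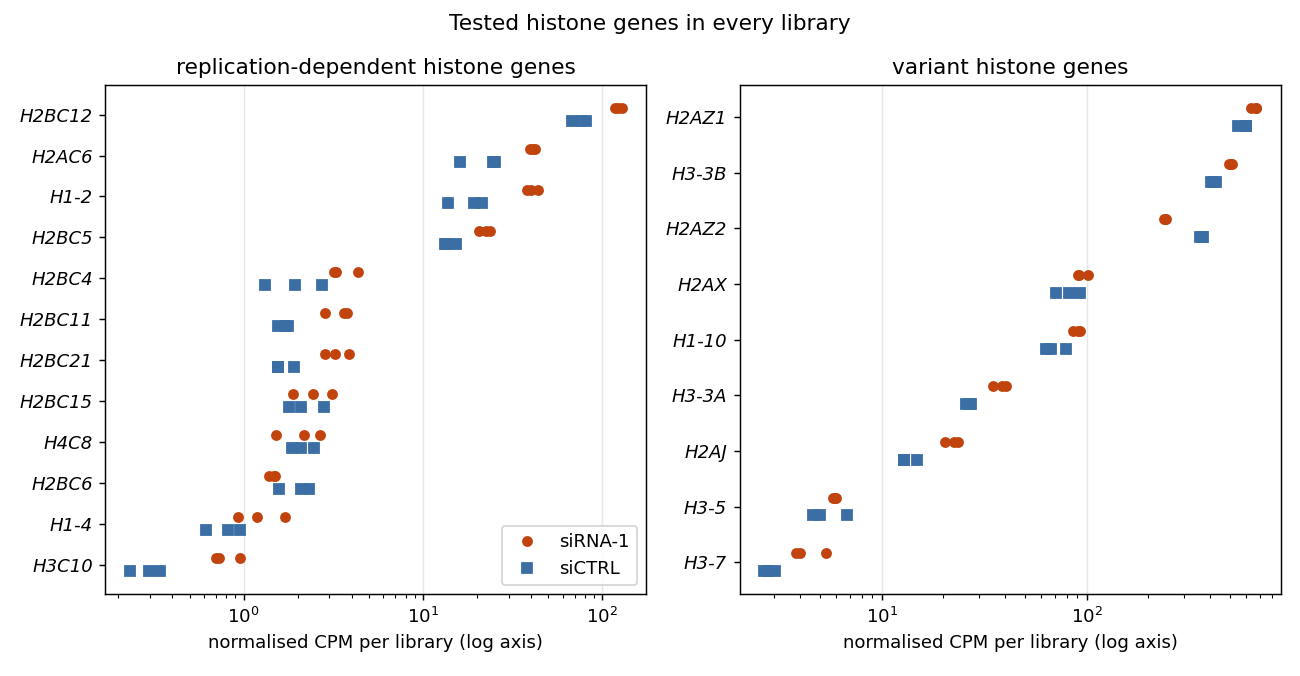
Normalised CPM (log axis) of tested histone genes in each library, siRNA-1 as circles above siCTRL as squares. CPM is not corrected for gene length, so the order of the genes down the page compares no levels between them; the circles of H2BC12 (118 to 128 CPM) lie right of its squares (67.6 to 80.7 CPM) and those of H2AZ2 (239 to 243 CPM) left of its squares (359 to 369 CPM).

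The 58 replication-dependent genes below the filter had 152, 116 and 144 counts in all with siRNA-1 and 87, 51 and 64 with siCTRL. Each siRNA-1 total was above each siCTRL total, a ratio of normalised sums of 1.92. Without the low-count filter 32 of them could be tested, and only H2AC20, H2AC17 and H4C11 passed. Among all genes tested that way, 7939 of 16236 passed, so these calls add no support for a rise. H2AC17, an H2A gene, had 18, 14 and 10 counts with siRNA-1 and 5 in each siCTRL library (log2 1.37 and edgeR adjusted p = 0.0194 without the filter). In GENCODE 29, 88% of the exonic bases of H2AC17 also lie in another gene. Of its 50-base words, 86.3% occur in other genes, so its counts are uncertain. H2AC20, another H2A gene, had 13, 8 and 9 counts with siRNA-1 and 2, 3 and 3 with siCTRL (log2 1.77 and edgeR adjusted p = 0.0155 without the filter). The H3 gene H3C2 had 12, 7 and 10 counts with siRNA-1 and 4 in each siCTRL library. Others overlapped, such as H2BC12L with 10, 8 and 10 counts with siRNA-1 and 9, 6 and 11 with siCTRL.

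Several replication-dependent genes sit head to head in pairs that share one short gap, and in some of these the counts of the partners were unequal. Of 12 such pairs with starts within 400 bases, H2BC12 and H2AC12 lie 331 bases apart and had 8472 and 19 counts in total over the 6 libraries. H2BC4 and H2AC6 had 241 and 2710 counts. H2BC11 and H2AC11 had 219 and 49, and H2BC21 and H2AC20 had 216 and 38. Some were near equal or empty: H2AC17 and H2BC17 had 57 and 50 counts, H2AC14 and H2BC14 had 6 and 5, and in 3 pairs both genes had 0. The rest had few counts in at least 1 partner: H2BC13 and H2AC13 had 6 and 20, and H2AC1 and H2BC1 had 0 and 2. H2BC17 also pairs with H3C12, which had 8 counts. H3C12 is the gene that overlaps H2AC17, as given above, and the annotated start of H3C12 lies inside H2AC17. Both pairs of H2BC17 therefore share one gap. Lengths of the counted transcripts are not known, so these counts are reads and not levels.

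Annotated stem-loops were found in genes with and without counts. A match was found in 8 of the 12 tested replication-dependent genes, 9 of the 32 with too few counts and 11 of the 26 at 0 counts. Among the 32, H2AC18, H2AC19, H3C2 and H3C3 are not in GENCODE 29 and were not searched. Some annotated transcripts end with the coding region, as those of H1-2 and H2BC12 do, and cannot match. These numbers therefore also reflect the annotation. Of the 8 that rose it was found in 5, and of the 4 that did not pass in 3. The genes at 0 counts include the unbroken run from H4C4 to H2BC10 described above.

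Variant H2A genes moved in opposite directions. H2AZ1 and H2AZ2 encode nearly identical forms of the variant H2A.Z, which is placed near transcription start sites. H2AZ2 had 240, 243 and 239 CPM with siRNA-1 and 369, 364 and 359 CPM with siCTRL. The libraries of each group lie close together and the groups are far apart. H2AZ2 (ENSG00000105968.19, chr7:44826791-44848083, minus strand) fell by 0.60 on the log2 scale, 1.51-fold lower (SE 0.048, edgeR adjusted p = 6.9e-07). It was called lower under every alternative run.

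H2AZ1 had 669, 630 and 666 CPM with siRNA-1 and 600, 546 and 600 CPM with siCTRL. All siRNA-1 values were above siCTRL by a small margin, and library 2 was the lowest of each group. H2AZ1 (ENSG00000164032.12, chr4:99948086-99950388, minus strand) rose 1.12-fold (log2 0.17, SE 0.055, edgeR adjusted p = 0.0181). It did not pass without siRNA-1 1 (edgeR adjusted p = 0.0729) or without siRNA-1 3 (edgeR adjusted p = 0.0676). H2AZ2 held 26.4%, 27.8% and 26.4% of the counts of the pair with siRNA-1 and 38%, 40% and 37.4% with siCTRL. The shares do not overlap and differed by -11.6 percentage points, while the widest 95% Wilson interval of a library spans 1.77 points. An exact two-sided permutation test gave p = 0.1, the smallest this design allows. In GENCODE 29, 10.9% of the 50-base words of H2AZ1 and 3.06% of those of H2AZ2 occur in other genes.

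H2AJ, a variant that differs from canonical H2A mainly at its C-terminus and accumulates in senescent cells, had 22.6, 23.7 and 20.3 CPM with siRNA-1 and 12.9, 12.9 and 14.8 CPM with siCTRL. The groups are well separated, and H2AJ rose 1.64-fold (log2 0.71, SE 0.1, edgeR adjusted p = 7.0e-05). H2AX, the variant phosphorylated at DNA double-strand breaks, is known to give both a stem-loop and a polyadenylated mRNA. It had 92.1, 90.9 and 101 CPM with siRNA-1 and 70.8, 92.3 and 82.3 CPM with siCTRL. Only siCTRL 2 reached into the siRNA-1 range. The log2 fold change was 0.21 (SE 0.087, edgeR adjusted p = 0.054), and without siCTRL 2 it was 0.29 (edgeR adjusted p = 7.6e-06).

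Of the H3 variants, both genes for H3.3 rose. H3.3 is the replacement H3 deposited outside S phase, and H3-3A and H3-3B encode the same protein. H3-3B had 492, 511 and 508 CPM with siRNA-1 and 426, 402 and 418 CPM with siCTRL. H3-3A had 38.6, 40.5 and 35 CPM with siRNA-1 and 26.9, 25.8 and 27.2 CPM with siCTRL. In both genes every siRNA-1 library was above every siCTRL library. H3-3B rose by 0.28 on the log2 scale (SE 0.049, edgeR adjusted p = 0.000405) and H3-3A by 0.51 (SE 0.08, edgeR adjusted p = 0.000149). H3-3A held 7.02% ± 0.501 of the counts of the pair with siRNA-1 and 6.02% ± 0.0907 with siCTRL (SD, n = 3, exact permutation p = 0.1). That difference of 0.996 percentage points is smaller than the widest 95% Wilson interval of a library, 1.26 points.

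H3-7 had 3.98, 3.84 and 5.38 CPM with siRNA-1 and 3.01, 2.8 and 2.68 CPM with siCTRL. The groups are apart and siRNA-1 3 is the highest library. H3-7 rose by 0.63 on the log2 scale (SE 0.2, edgeR adjusted p = 0.0151), and without siRNA-1 3 it did not pass (log2 0.47, edgeR adjusted p = 0.0811). It is a non-coding transcript in GENCODE 29 and shares 37.4% of its exonic bases with other genes, so its counts are uncertain. H3-5, a retrotransposed copy of an H3.3 gene, had 5.8, 5.96 and 5.93 CPM with siRNA-1 and 4.65, 6.76 and 4.98 CPM with siCTRL. Here siCTRL 2 was above all siRNA-1 libraries (log2 0.12, SE 0.17, edgeR adjusted p = 0.566).

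H1-10, a linker histone variant, had 85.6, 93.1 and 90.4 CPM with siRNA-1 and 66.7, 79.7 and 63.5 CPM with siCTRL. The groups are apart, with siCTRL 2 the highest control, and H1-10 rose 1.28-fold (log2 0.36, SE 0.082, edgeR adjusted p = 0.00223). In GENCODE 29, 22.9% of its exonic bases lie in the antisense gene H1FX-AS1, and whether the counting used strand was not given in the sources used here.

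**Figure D5:**
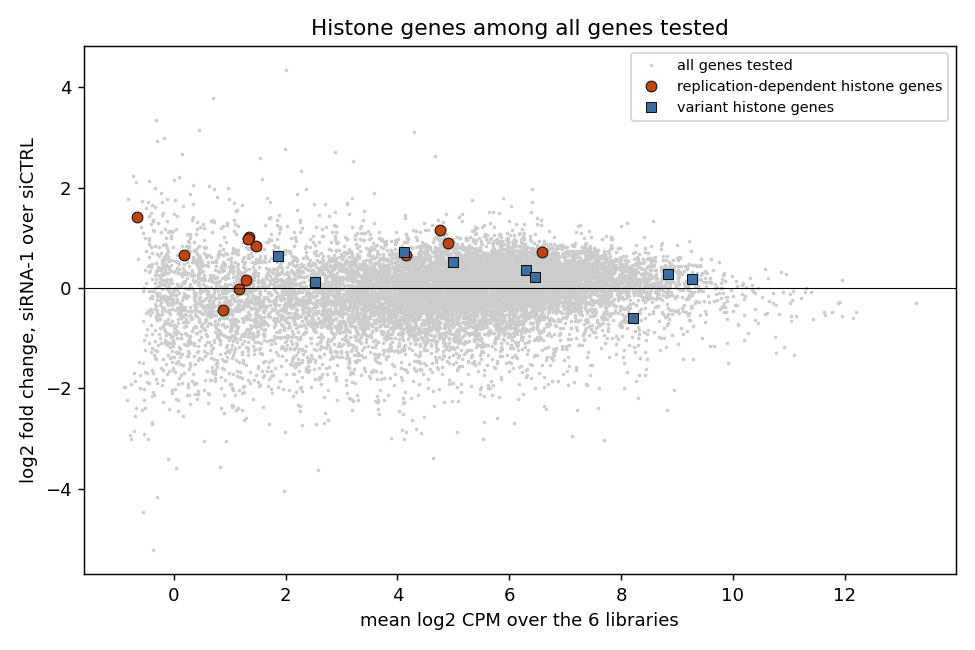
Log2 fold change of siRNA-1 over siCTRL against the mean log2 CPM of the 6 libraries for all 12440 genes tested, with 12 replication-dependent and 9 variant histone genes marked. Most marked genes lie above 0, and H2AZ2 lies at -0.60.

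Genes that make, cut, carry and place histones were counted from lists of 105 genes, of which 103 were tested. In all, 51 rose, 19 fell and 33 did not pass, and the median log2 fold change was 0.16. The share that passed is close to the 62.5% of all genes tested, of which 31.5% were higher and 31.0% lower. Of 27 genes for histone transcription and mRNA end processing, 16 rose and 4 fell. SLBP, which binds the stem-loop, had 146, 143 and 138 CPM with siRNA-1 and 126, 112 and 130 CPM with siCTRL. The groups are apart and SLBP rose by 0.22 on the log2 scale (SE 0.064, edgeR adjusted p = 0.0114), but it did not pass without siRNA-1 1 (edgeR adjusted p = 0.0509). NPAT, the coactivator of replication-dependent histone transcription, had 43, 41.5 and 45 CPM with siRNA-1 and 46.7, 53.9 and 52.9 CPM with siCTRL. Its siRNA-1 libraries were all below the controls and NPAT fell by 0.24 on the log2 scale (SE 0.074, edgeR adjusted p = 0.0125). It did not pass without siRNA-1 2 (edgeR adjusted p = 0.065) or when libraries were corrected for GC content and length (log2 -0.10, edgeR adjusted p = 0.173).

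The 3 genes of that list with the smallest p are as follows. NELFE, a subunit of the negative elongation factor, averaged 87.4 ± 3.12 CPM with siRNA-1 and 194 ± 6.59 CPM with siCTRL and fell by 1.15 on the log2 scale (edgeR adjusted p = 1.4e-08). CDK2, the kinase that phosphorylates NPAT, averaged 119 ± 3.2 CPM with siRNA-1 and 68.3 ± 3.86 CPM with siCTRL (log2 0.80, edgeR adjusted p = 4.3e-07). ZNF473, a zinc finger protein of the processing complex, averaged 35.9 ± 0.955 CPM with siRNA-1 and 21.8 ± 0.757 CPM with siCTRL (log2 0.72, edgeR adjusted p = 6.0e-06). In this list, then, CDK2 and ZNF473 rose and NELFE fell.

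Of 32 tested chaperones and importers, 16 rose and 2 fell. HIRA, the H3.3 chaperone, averaged 82.9 ± 0.346 CPM with siRNA-1 and 52.5 ± 2.52 CPM with siCTRL and rose (log2 0.66, edgeR adjusted p = 2.1e-06). HAT1, which acetylates new H4, averaged 121 ± 8.7 CPM with siRNA-1 and 77.9 ± 1.95 CPM with siCTRL and rose (log2 0.63, edgeR adjusted p = 5.2e-06). IPO5, an importin, averaged 343 ± 8.7 CPM with siRNA-1 and 262 ± 9.42 CPM with siCTRL and rose (log2 0.39, edgeR adjusted p = 4.4e-05). Of 20 genes of variant exchange complexes, 11 rose and 3 fell. Over all genes tested, 62.5% passed, 31.5% higher and 31.0% lower, and neither list was tested as a set. Among the exchange genes, RUVBL1, an ATPase of the H2A.Z exchangers, rose by 0.40 on the log2 scale (edgeR adjusted p = 0.000222). YEATS4, a reader subunit of those complexes, fell by 0.92 (edgeR adjusted p = 1.3e-05), and MIS18A, needed to load the centromeric H3, fell by 0.78 (edgeR adjusted p = 2.3e-05).

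Variants whose symbols fall outside the pattern moved both ways. CENPA, the centromeric H3, averaged 47.1 ± 2.71 CPM with siRNA-1 and 31.7 ± 2.34 CPM with siCTRL and rose by 0.57 on the log2 scale (edgeR adjusted p = 5.5e-05). MACROH2A1, a large H2A variant of silent chromatin, averaged 230 ± 4.07 CPM with siRNA-1 and 262 ± 13.6 CPM with siCTRL and fell by 0.19 (edgeR adjusted p = 0.0103), a call lost after the GC and length correction (edgeR adjusted p = 0.285). MACROH2A2 had too few counts.

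Of 23 S phase genes, 8 rose, 9 fell and 6 did not pass, with a median log2 fold change of -0.06, and those shares are close to the 31.5% higher and 31.0% lower of all genes. The 3 with the smallest p, by which they are named here, all fell. The DNA polymerase subunit POLA1 averaged 28.4 ± 0.148 CPM with siRNA-1 and 59.3 ± 3.78 CPM with siCTRL and fell by 1.06 on the log2 scale (edgeR adjusted p = 1.7e-07). The helicase subunit MCM3 averaged 262 ± 4.93 CPM with siRNA-1 and 408 ± 2.74 CPM with siCTRL and fell by 0.64 (edgeR adjusted p = 4.3e-07). The checkpoint adaptor CLSPN averaged 48 ± 2.16 CPM with siRNA-1 and 83.9 ± 4.38 CPM with siCTRL and fell by 0.80 (edgeR adjusted p = 7.8e-07).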

How the data were processed

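Per the labels, libraries were prepared from total RNA of 3 siRNA-1 and 3 siCTRL cultures with an NEBNext Ultra RNA kit and sequenced. Whether poly(A) RNA was selected from it was not tested. The deposited table holds raw read counts per Ensembl gene, made by the authors with HTSeq. The submitters' processing notes also name Trimmomatic, STAR, kallisto and the build hg38, without tool versions. Neither the annotation release nor the strand setting was given in the sources used here. All 20042 rows were matched to a symbol, and 89 of the 94 histone genes were found in GENCODE 29.

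The analysis used edgeR 4.0.16 in R 4.3.3. The filter was filterByExpr (minimum count 10, minimum total 15), which removed 7602 genes, and libraries were scaled by TMM (factors 0.972 to 1.02). siRNA-1 was compared with siCTRL by the quasi-likelihood F test, two-sided, with group as the only term, Benjamini-Hochberg adjustment over all 12440 genes and a threshold of 0.05. edgeR's common biological coefficient of variation came to 0.0656. Medians, sums and shares of gene lists carry no set test. The fit was tested on simulated data. Wilson intervals cover counting error only, and reads without molecular identifiers are not independent molecules.

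The histone genes, their classes, the lists of other genes and the rule for naming genes were chosen with earlier results of these data known. All tested histone genes are named, apart from 1 that is not reported here. Of the other lists, SLBP and NPAT are named whatever their result, with up to 3 genes per list of the smallest adjusted p. Alternatives were DESeq2 1.42.0 (its Wald test, or its size factors within edgeR), limma-voom (limma 3.58.1), library totals without TMM, no filter, a replicate block, a loess correction for GC content and length (span 0.4), and leaving out each library.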

Additional observations from a re-analysis of the deposited data

How the results depend on the processing

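Of the tested histone genes, 15 were called in the main analysis, and 13 to 19 under the alternatives, each time with exactly 1 fall, H2AZ2. The highest count came without the low-count filter, where 57 histone genes were tested and H2AC20 (edgeR adjusted p = 0.0155), H2AC17 (0.0194) and H4C11 (0.0471) also passed; H4C11 had 1, 2 and 4 counts with siRNA-1 and 0 in every siCTRL library. DESeq2's Wald test called 14 histone genes, of which 7 were replication-dependent. Leaving out one library at a time gave 13 to 17 histone genes, 7 to 9 replication-dependent genes, 5 to 8 variants, 57 to 80 genes of the other lists and 6848 to 8635 of all genes. The median log2 fold change of the tested replication-dependent genes ranged from 0.62 without siCTRL 2 to 0.90 without siCTRL 1, and that of variants from 0.22 to 0.28. With library totals alone the ratio of summed variants was 1.06 and that of replication-dependent genes 1.78. The GC and length correction moved the median of all genes to 0.085 and called 4831 genes higher and 3389 lower. Same-numbered libraries did not deviate together (correlations 0.0669, -0.0782 and -0.0571), and not every library was closest to its own number, so the replicate numbers do not pair them. With the replicate block, 16 histone genes were called, 8 of them replication-dependent and 8 variant, with 7535 of all genes. H2AX passed under the block (edgeR adjusted p = 0.0433), library totals (0.0388), no filter (0.0277) and limma-voom (0.0461). No log2 fold change of a called histone gene changed sign. Of the 32 replication-dependent genes with too few counts for the filter, only H2AC20, H2AC17 and H4C11 passed without it. Among all genes tested without it, 7939 of 16236 passed.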
